A study of Mus musculus with 8 samples.

Results

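Transcripts of 10 genes of the interleukin 1 and interleukin 18 systems were followed across the cells of the newborn mouse lung. The members were 2 agonist ligands of the interleukin 1 receptor (Il1a, Il1b), the receptor antagonist Il1rn, the signalling receptor Il1r1 and the decoy receptor Il1r2, the ligand Il18 with its receptor chains Il18r1 and Il18rap, the inflammasome sensor Nlrp3 and the protease Casp1. They were chosen by name, and all 10 were among the 32285 genes of the table. Groups of cells were set by minimum numbers of unique molecular identifiers (UMIs, tags that count captured RNA molecules) of other genes, which gave 11 groups. The gates were Ear1 and Marco at 2 UMIs for alveolar macrophages, C1qa and C1qb at 5 for interstitial macrophages, Inhba and Saa3 at 5 for inflammatory macrophages, and Ly6c2 and F13a1 at 3 or Ace and Adgre4 at 2 for monocytes. Neutrophils had S100a8 and S100a9 at 2% of UMIs and Csf3r at 1 UMI, gamma-delta T cells Trdc at 2, natural killer (NK) cells Ncr1 at 1 and T cells Cd3e and Trac at 2. Alveolar type 2 (AT2) cells, which make surfactant, had Sftpc at 3% of UMIs, alveolar type 1 (AT1) cells, which form the gas exchange surface, Rtkn2 at 3 and endothelium Cdh5 and Cldn5 at 2. A cell was placed in a group when it met that gate alone, with gamma-delta T cells allowed to meet the T gate.

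Interleukin 1 alpha, interleukin 1 beta and interleukin 18 are alarm cytokines that act through related receptors and the adaptor MyD88. Interleukin 1 beta and interleukin 18 are made as inactive precursors and are cut by caspase-1 after an inflammasome, such as the one built on NLRP3, has assembled. A soluble antagonist and a decoy receptor limit interleukin 1 signalling, while interleukin 18 is known for driving interferon gamma in NK and T cells, and the pathway has been linked to inflammatory injury of the immature lung.

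The series holds 8 single-cell libraries of lungs from 5-day-old C57BL6/J pups, labelled WT in their titles. All had antenatal lipopolysaccharide (LPS, a bacterial cell wall component) at gestation day 14, followed from birth by 21% oxygen (Air, with the disease state Healthy, 4 libraries) or 65% oxygen (Hyperoxia, with the disease state BPD, bronchopulmonary dysplasia, 4 libraries). No group without LPS was analysed here. Lungs were frozen, thawed and sorted for endothelial, epithelial and immune cells before capture, so the sort and the thaw set which cells were present and in what numbers.

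The deposited table pooled 11806 cells with 77020720 UMIs (median 4425 per cell, range 1055 to 39865), and 0 of the 8 libraries could be matched to its columns. Hyperoxia was therefore not compared with air, and no p-value is given. The barcodes fell into 8 alphabetical runs of 282 to 3355 cells, and values are also given by run as a description, since a run is no known library. Of the barcodes, 12 occurred in more than 1 run (31 cells). In all, 6722 cells belonged to exactly 1 group, 728 met several gates and 4356 met none.

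The group names held against markers outside the gates for most groups. All 8 neutrophil markers, all 6 of NK cells, all 6 of AT2 cells, all 6 of AT1 cells and all 7 of endothelium were highest in the group of that name. Of the inflammatory macrophage markers 3 of 5 were (Arg1, Spp1 and Cxcl3), while Thbs1 and Slc7a11 were higher in neutrophils, and the list summed to 1909 CPM in this group and 2364 CPM in neutrophils. Of the interstitial macrophage markers 5 of 7 were, and Folr2 was nearly absent there (0.428 CPM). The remaining groups were led by 4 of 6 markers (alveolar macrophage), 4 of 5 (gamma-delta T), 5 of 7 (T), and 3 of 5 classical and 3 of 6 nonclassical markers (monocyte). Group sizes ran from 102 AT1 cells to 3069 monocytes, and run 1 held 193 of the 326 neutrophils (59.2%) and 79 of the 143 inflammatory macrophages.

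A level is the summed UMIs of a gene in a group per 1000000 UMIs of that group (CPM), with an exact 95% Poisson interval. Such intervals, and those of shares and ratios, cover counting error only, not differences between animals. The tags were counted at the 3' end and levels were not scaled by gene length, so levels are compared between groups for 1 gene at a time.

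On these levels the interleukin 1 ligand, antagonist, decoy and sensor transcripts Il1b, Il1rn, Il1r2 and Nlrp3 were highest in neutrophils. Il1a was highest in inflammatory macrophages, Il18 in alveolar macrophages, Casp1 in monocytes, Il1r1 in gamma-delta T cells and both interleukin 18 receptor chains in NK cells. The leading group lay at least 2-fold above the next for 8 of the 10 members, all except Il18r1 and Casp1. Among the 10654 ranked genes (at least 20 CPM in some group, gate genes left out) 21.3% did so, and the median ratio of the leading to the next group was 2.66 for the members and 1.28 for all ranked genes. Neutrophils led 4 of the 10 members against 8.92% of ranked genes, and led with at least 2-fold in 4 of 10 against 2.06%. The genes were chosen with earlier results of these data known, so these shares describe the members and test nothing.

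**Figure D1:**
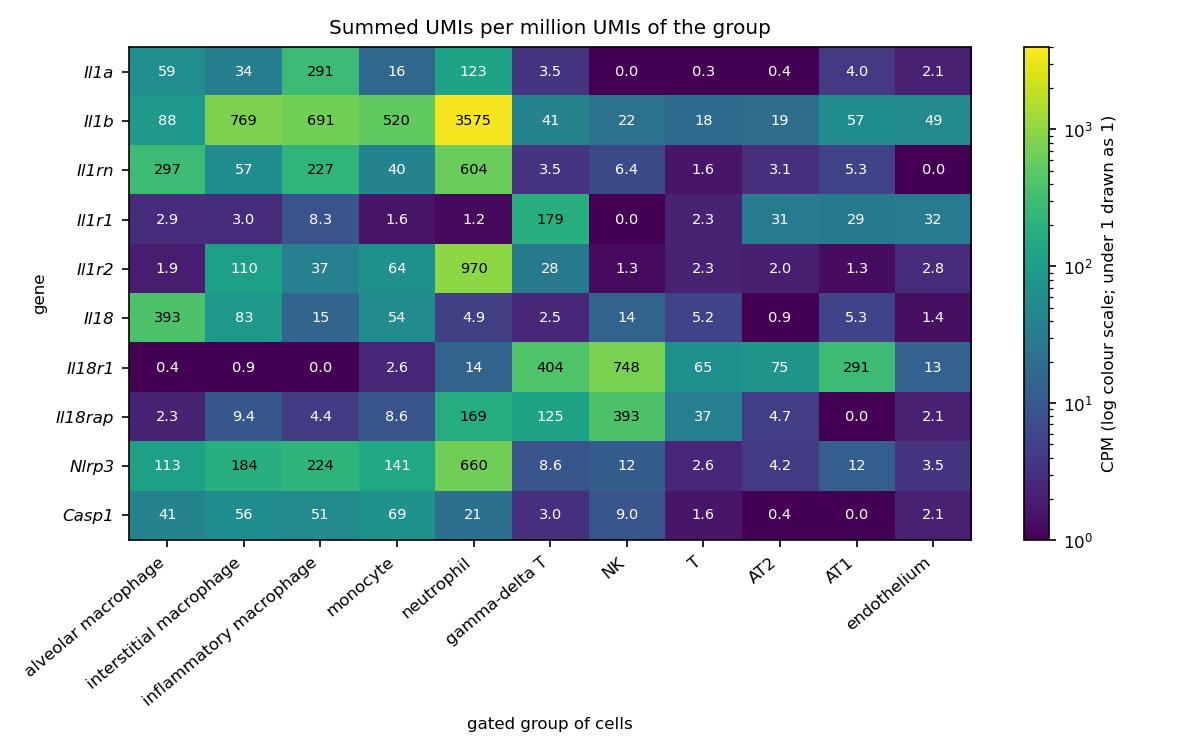
Level of each of the 10 genes (rows) in each of the 11 gated groups (columns), as CPM on a logarithmic colour scale with the value in each cell. Il1b in neutrophils (3575 CPM) is the highest value, the interleukin 18 receptor rows are bright in NK and gamma-delta T cells, and the Casp1 row reaches at most 68.6 CPM.

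The 250 bases before the RefSeq start site are shown for the member with the highest level (Il1b), the other agonist ligand (Il1a), the inflammasome sensor (Nlrp3, the upstream of its 2 windows) and the receptor chain that was high in both NK cells and neutrophils (Il18rap). All are from build GRCm38.p6, the mm10 assembly, read 5' to 3' on the strand of the gene. Capitals mark matches, on either strand, to a kappaB motif (the binding pattern of the NF-kB factors), to the AP-1 motif TGANTCA, to the C/EBP motif TTNNGNAA or to the ETS motif GAGGAA.
Il1b, chr2:129371140-129371389, minus strand: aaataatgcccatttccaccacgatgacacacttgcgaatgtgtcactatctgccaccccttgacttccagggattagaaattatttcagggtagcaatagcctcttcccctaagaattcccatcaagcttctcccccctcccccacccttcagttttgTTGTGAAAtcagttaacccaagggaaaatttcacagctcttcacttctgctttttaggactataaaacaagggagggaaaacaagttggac
Il1a, chr2:129309973-129310222, minus strand: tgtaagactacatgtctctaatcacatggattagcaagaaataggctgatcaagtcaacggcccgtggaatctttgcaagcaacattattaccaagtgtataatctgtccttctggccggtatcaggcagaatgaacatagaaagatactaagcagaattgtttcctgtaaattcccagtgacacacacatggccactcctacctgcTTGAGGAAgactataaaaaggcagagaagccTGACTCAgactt
Nlrp3, chr11:59541319-59541568, plus strand: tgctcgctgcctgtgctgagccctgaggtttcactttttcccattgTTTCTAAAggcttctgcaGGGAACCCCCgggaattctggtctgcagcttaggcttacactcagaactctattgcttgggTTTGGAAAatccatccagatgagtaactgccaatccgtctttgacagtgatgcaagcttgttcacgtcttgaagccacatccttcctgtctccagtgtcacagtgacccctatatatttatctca
Il18rap, chr1:40515112-40515361, plus strand: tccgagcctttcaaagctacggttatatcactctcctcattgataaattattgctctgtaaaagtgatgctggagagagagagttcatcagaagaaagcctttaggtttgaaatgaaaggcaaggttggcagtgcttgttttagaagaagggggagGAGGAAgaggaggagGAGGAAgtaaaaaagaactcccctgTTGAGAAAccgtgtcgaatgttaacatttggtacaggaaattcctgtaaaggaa

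Of all 32851 windows of this length, 3.90% held a kappaB match, 6.75% an AP-1 match, 36.8% a C/EBP match and 23.3% an ETS match. The Il1b window held 1 C/EBP match, which began 91 bases before the start site, and no match to the other 3 motifs. The Il1a window held an AP-1 match 12 bases before the start site and a C/EBP match at 43 bases that shares letters with the ETS match at 41 bases. The Nlrp3 window shown held a kappaB match at 186 bases and C/EBP matches at 204 and 125 bases. The other Nlrp3 window, not printed, held no kappaB or AP-1 match, 1 C/EBP match and 3 ETS matches. In Il18rap there were ETS matches at 94 and 79 bases and a C/EBP match at 54 bases. A match is a description of the letters and not a binding site, and the motifs and windows were chosen after the levels had been seen. All 10 members matched the RefSeq promoter table, with 16 windows in all, and the single windows of Il1r2 and Il18 held none of the 4 motifs.

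The genes lie on 4 chromosomes of the mm10 assembly (GRCm38). On chromosome 1 the receptor genes stand in a row on the plus strand: Il1r2 (40074079 to 40125231), Il1r1 (40225080 to 40317257), Il1rl2, Il1rl1, Il18r1 (40465552 to 40500854) and Il18rap (40515362 to 40551705), and Il18r1 begins 136 bases after Il1rl1 ends. Il1a (129299610 to 129309972) and Il1b (129364570 to 129371139) lie on the minus strand of chromosome 2, apart from Il1rn on the plus strand (24336853 to 24351494). Casp1 (5298517 to 5307265) and Il18 (50554827 to 50581840) lie on chromosome 9 and Nlrp3 (59541568 to 59566956) on chromosome 11, all on the plus strand. In the annotation, Il1a overlaps Gm14023, Il1b overlaps Il1bos, Il1r2 overlaps Gm16894, and Il18 overlaps Bco2 and Tex12, each on the opposite strand. On the same strand, Il1r2 overlaps Gm37347 and Il1r1 overlaps Gm38070. How the counting treated strand is not given in the sources used here, so reads of such partners could not be told apart.

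Neighbouring receptor genes had different leading groups. Il1r2 led in neutrophils, Il1r1 in gamma-delta T cells and the Il18r1 and Il18rap pair in NK cells, although the 4 stand on a single stretch of chromosome 1. Il1rl1, the interleukin 33 receptor gene that ends just before Il18r1, reached at most 2.99 CPM in any gated group.

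Il1b, the secreted ligand that needs cleavage, had by far its highest level in neutrophils, at 3575 CPM (3484 to 3667, 5852 UMIs). It was 769 CPM in interstitial macrophages, 691 CPM in inflammatory macrophages and 520 CPM in monocytes. Alveolar macrophages stood apart from the other phagocytes with 87.5 CPM (81.1 to 94.3). The neutrophil level was 4.65-fold that of interstitial macrophages (interval 4.41 to 4.90), which in turn was 8.79-fold that of alveolar macrophages (8.05 to 9.61).

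In the 3 runs with at least 20 neutrophils Il1b was 3822, 2911 and 1582 CPM, above every other group in each of them. The other groups with many UMIs overlapped from run to run: 457 to 1280 CPM over 6 runs in interstitial macrophages and 216 to 648 CPM over 8 runs in monocytes. Alveolar macrophages stayed at 50.4 to 161 CPM over 6 runs, under the lowest monocyte run. Because monocytes were the largest group, they held 26.9% of all Il1b UMIs against 16.6% in neutrophils, and cells of no gate held 33.4%.

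After every cell was thinned to 2000 UMIs, 250 of 301 neutrophils (83.1%) had an Il1b UMI. The thinned shares were 57.8% of interstitial macrophages, 43.7% of inflammatory macrophages, 39.2% of monocytes and 10.8% of alveolar macrophages. In T cells, which are not known as a source, the share was 1.72%, at a median depth of 4469 UMIs before thinning against 4677 in neutrophils. Without thinning the shares were 88.0% of neutrophils and 2.11% of T cells, and thinning left out 25 neutrophils and 18 T cells for depth.

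Low Il1b levels were found in every lymphoid, epithelial and endothelial group, from 18.4 CPM in T cells to 56.7 CPM in AT1 cells. In some groups 1 cell carried a large share of these UMIs: 57 of 81 in gamma-delta T cells, 11 of 17 in NK cells, 47 of 87 in AT2 cells and 28 of 56 in T cells. The UMIs were more spread in endothelium, where the highest cell held 31 of 70 and 24 cells had a UMI, and in AT1 cells, where it held 12 of 43 and 17 cells had a UMI. By run, AT1 cells had 16.1 and 134 CPM, endothelial cells 2.40 to 171 CPM and T cells 0 to 98.9 CPM. The neighbours in this order (AT1 and endothelium, endothelium and gamma-delta T, NK and AT2, AT2 and T) did not differ beyond counting error.

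Genes of the myeloid marker lists were also detected in the same groups. The summed level of the 8 neutrophil markers was 6.59 CPM in AT1 cells, with Mmp9, Ly6g, Camp and Ngp at 0, 9.83 CPM in T cells, with Mmp9 and Ly6g at 0, and 40.1 CPM in endothelium, with Ly6g and Ngp at 0. It was 42.4 CPM in gamma-delta T cells, with Ly6g at 0, 28.2 CPM in NK cells, with Cxcr2, Ly6g, Camp and Mmp8 at 0, and 20.6 CPM in AT2 cells, with none at 0. In neutrophils it was 7766 CPM. The nonclassical monocyte list reached 574 CPM in NK cells and 452 CPM in gamma-delta T cells, with no marker at 0, against 2217 CPM in monocytes. Of its 6 markers, 3 were highest in monocytes and 1 in gamma-delta T cells, so the list is not particular to myeloid cells. With Cd300e at 0, it was 243 CPM in T cells, 237 CPM in endothelium, 161 CPM in AT2 cells and 81.7 CPM in AT1 cells. Over these groups the classical monocyte list ran from 43.9 CPM in AT2 cells to 671 CPM in gamma-delta T cells (monocytes 4016 CPM). The interstitial macrophage list ran from 84.5 CPM in NK cells to 293 CPM in AT2 cells. The inflammatory macrophage list ran from 76.8 CPM in NK cells to 246 CPM in AT1 cells. The alveolar macrophage list ran from 14.5 CPM in AT1 cells to 217 CPM in endothelium, where Fabp4 alone was 195 CPM. The part of such transcripts in the low Il1b values was not tested.

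The neutrophils themselves were not uniform. Those with a UMI of Camp or Ngp, granule genes of immature neutrophils (56 cells), had 2133 CPM of Il1b (1969 to 2308), and the 270 without had 3886 CPM (3781 to 3993). Il1r2 was 826 against 1001 CPM and Il18rap 169 against 169 CPM in the same split. A further 94 cells met both the neutrophil and the monocyte gate and no other. Their Il1b level was 739 CPM, and the neutrophil group stood 4.84-fold above them (4.52 to 5.18). With gates as written, where such cells also count as neutrophils, the neutrophil level of Il1b was 2295 CPM.

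Monocytes differed by the arm of their gate. Cells that passed only through Ace and Adgre4, genes of nonclassical monocytes (2002 cells), had 675 CPM of Il1b, and cells that passed only through Ly6c2 and F13a1, genes of classical monocytes (739 cells), had 323 CPM, a ratio of 2.09 (1.98 to 2.21). The decoy receptor gene Il1r2 ran the other way, with 39.0 against 109 CPM. Il18 (64.6 against 41.7 CPM) and Il1rn (49.5 against 29.0 CPM) ran in the order of Il1b. Nlrp3 was 132 against 142 CPM and Casp1 61.6 against 65.0 CPM, with intervals of the ratio that included 1 for both (0.845 to 1.02 and 0.828 to 1.09). The 328 monocytes that passed both arms were higher for these genes, with 165 CPM of Nlrp3 (151 to 180) and 95.4 CPM of Casp1 (85.1 to 107).

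Il1a, the ligand that acts without cleavage by caspase-1, followed another order. It was highest in inflammatory macrophages at 291 CPM (268 to 316), followed by neutrophils at 123 CPM, alveolar macrophages at 59.0 CPM, interstitial macrophages at 34.2 CPM and monocytes at 16.2 CPM. The other 6 groups were at 3.95 CPM or less, with 0 UMIs in NK cells (under 3.84 CPM by the limit of 3 counts). All neighbours in the order down to monocytes differed beyond counting error.

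The inflammatory macrophage level of Il1a was 269 and 425 CPM in the 2 runs that held enough cells, above each other group there. It was 2.37-fold the neutrophil level (2.02 to 2.80). On the log2 scale the ratio to the next group, whichever it was in that setting, was 1.25 with all runs. It was 2.45 without run 1, 0.86 without run 6 and 0.72 in cells thinned to a common depth. Per Il1b UMI there were 0.674 Il1a UMIs in alveolar macrophages, 0.421 in inflammatory macrophages and 0.0343 in neutrophils. With all cells pooled, neutrophils were second for Il1a by level, ahead of alveolar macrophages, although their ratio to Il1b was lower. That place rested on run 1, which held 173 of the 201 neutrophil UMIs (164 CPM). Neutrophils had 58.0 CPM in run 6 and 39.9 CPM in run 7, where alveolar macrophages had 58.1 CPM.

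Within inflammatory macrophages Il1a and Nlrp3 were each compared with Il1b cell by cell. In thinned cells, 64.2% of those with an Il1a UMI had one of Il1b (49.8% to 76.9%), against 31.5% of those without (22.0% to 42.2%). For Nlrp3 the shares were 48.4% of cells with Il1b and 17.5% of cells without. Such shares come from cells of 1 pooled group and describe it.

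Il1rn, the antagonist that occupies the interleukin 1 receptor without signalling, was found in 3 groups above all. It was 604 CPM in neutrophils (567 to 643), 297 CPM in alveolar macrophages (285 to 309) and 227 CPM in inflammatory macrophages (206 to 248). Interstitial macrophages had 56.9 CPM, monocytes 40.3 CPM, and the other 6 groups at most 6.40 CPM, with 0 UMIs in endothelium (under 2.11 CPM).

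The lead of neutrophils in Il1rn differed between runs. By run it was 691, 538 and 93.1 CPM, while alveolar macrophages had 201 to 443 CPM over 6 runs and were above neutrophils in run 7 (319 against 93.1 CPM). The ratio of neutrophils to alveolar macrophages was 2.03 with all runs (1.89 to 2.19), 1.45 without run 1, which held most neutrophils, and 1.29 with gates as written, where the neutrophil level was 372 CPM. In AT2 cells all 14 Il1rn UMIs came from 1 cell.

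On pooled counts the balance of antagonist to ligand separated the macrophage groups. Alveolar macrophages had 3.39 Il1rn UMIs per Il1b UMI (3.12 to 3.70), and no other gated group reached 1. The 643 cells of no gate with at least 5 UMIs of Chil3 and Plet1, which are alveolar macrophage markers although Chil3 is also on the classical monocyte list, had the opposite balance, with 1051 Il1rn and 2002 Il1b UMIs. Among the gated groups the ratio was 0.328 in inflammatory macrophages, 0.169 in neutrophils, 0.0775 in monocytes and 0.0740 in interstitial macrophages. By run, for runs with at least 20 cells of the group, it reached 6.33 in alveolar macrophages. The lowest of their runs (155 Il1rn and 119 Il1b UMIs) was above the highest such run of the other 4 myeloid groups (0.252). Inflammatory macrophages had only 2 such runs, at 0.180 and 0.252, both under their pooled ratio of 0.328. Their cells in smaller runs thus had a higher ratio and are not part of the comparison by run. Capture may differ between the genes, so the ratio is read between groups and not as a count of protein. Within thinned alveolar macrophages, 11.8% of cells with an Il1rn UMI and 9.96% of those without had a UMI of Il1b.

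**Figure D2:**
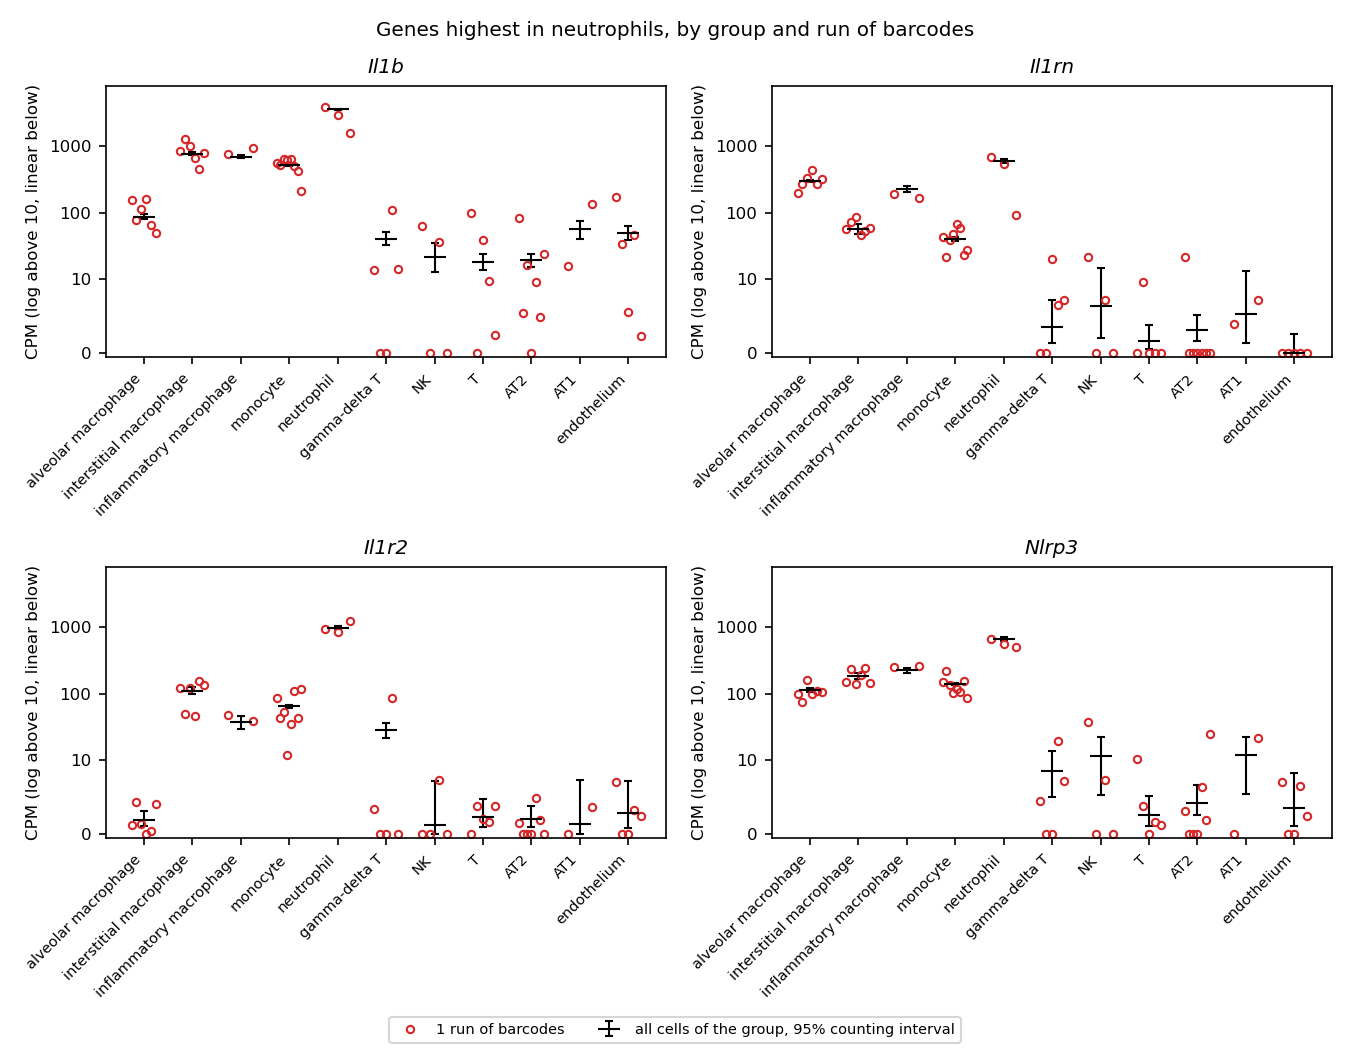
CPM of Il1b, Il1rn, Il1r2 and Nlrp3 in each group (logarithmic above 10 CPM, linear below), with the pooled value and its 95% counting interval in black and each run of barcodes with at least 20 cells of the group as a red circle. The neutrophil circles lie above those of every other group for Il1b, Il1r2 and Nlrp3, while for Il1rn the lowest neutrophil run (93.1 CPM) lies under the alveolar macrophage runs.

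Il1r1, the receptor chain that signals, was found mainly in 4 groups, none of them myeloid. Gamma-delta T cells had 179 CPM (161 to 199), and endothelium, AT2 and AT1 cells had 31.7, 31.3 and 29.0 CPM, which did not differ from each other beyond counting error. Inflammatory macrophages had 8.32 CPM and the remaining groups 2.99 CPM or less, with 2 UMIs in all 326 neutrophils and 0 in NK cells (under 3.84 CPM). The gamma-delta T level was 5.66-fold that of endothelium (4.14 to 7.89) and 78.0-fold that of T cells (37.5 to 195).

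Gamma-delta T cells were highest for Il1r1 in each of the 5 runs that held enough of them, at 50.7 to 216 CPM with a median of 152 CPM. AT2 cells had 18.5 to 49.7 CPM over 7 runs and endothelium 5.61 to 49.0 CPM over 5. After thinning, 28.1% of gamma-delta T cells (64 of 228) and 0.735% of T cells had an Il1r1 UMI, and before thinning 46.6% and 1.41%, at median depths of 5455 and 4469 UMIs. The lowest gamma-delta T run, with 22 cells and 5 UMIs, still exceeded the highest AT2 run by little.

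Il1r1 was not uniform within gamma-delta T cells. Split by Tbx21 and Ifng, genes of the interferon gamma program, it was 69.5 CPM (53.4 to 89.0) in the 97 cells with a UMI and 271 CPM (241 to 304) in the 150 without, at median depths of 6529 and 4897 UMIs. Il18r1 followed the same order, with 257 CPM in the cells with a UMI and 528 CPM in those without. The split was chosen after the levels had been seen.

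Il1r2, the decoy that binds interleukin 1 without signalling, was highest in neutrophils at 970 CPM (923 to 1019). Interstitial macrophages had 110 CPM, monocytes 63.9 CPM, inflammatory macrophages 37.2 CPM and gamma-delta T cells 28.2 CPM, of which 40 of 56 UMIs were in 1 cell. The other 6 groups were at 2.81 CPM or less, and they included alveolar macrophages at 1.89 CPM (1.06 to 3.12).

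The neutrophil level of Il1r2 was 8.82-fold the next (7.73 to 10.1), the widest lead of the 10 members on summed counts. With equal weight per cell the lead of Il1r1 (2.86 on the log2 scale) was wider than that of Il1r2 (2.72). Its runs were 927, 824 and 1223 CPM, against at most 154 CPM in any run of another group. Neutrophils held 1588 Il1r2 UMIs and 2 of Il1r1, a ratio of 794 with a wide interval (219 to 6562). In gamma-delta T cells the ratio was 0.158, in AT2 cells 0.0638 and in endothelium 0.0889. Interstitial macrophages and monocytes also had high ratios (36.7 and 40.1 Il1r2 UMIs per Il1r1 UMI). Alveolar macrophages had 15 UMIs of Il1r2 and 23 of Il1r1 (ratio 0.652, interval including 1). Capture may differ between the decoy and the signalling receptor gene, so this ratio is read between groups only.

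Il18, the ligand that is stored as a precursor, was highest in alveolar macrophages at 393 CPM (379 to 407). It was 83.4 CPM in interstitial macrophages, 54.5 CPM in monocytes and 15.2 CPM in inflammatory macrophages, and all of these neighbours differed beyond counting error. NK cells had 14.1 CPM from 11 UMIs in 3 cells, all of them in run 3. The other 6 groups were at 5.27 CPM or less. AT2 cells were at 0.888 CPM and neutrophils at 4.89 CPM.

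Alveolar macrophages led Il18 in all 6 runs, at 310 to 529 CPM, with no overlap with interstitial macrophages (40.2 to 193 CPM) or monocytes (25.6 to 82.4 CPM). Their level was 4.71-fold that of interstitial macrophages (4.07 to 5.47) and 25.9-fold that of inflammatory macrophages (18.2 to 38.2). After thinning 52.0% of alveolar macrophages (464 of 893) and 0.336% of AT2 cells had an Il18 UMI. Without thinning the shares were 85.2% and 0.578%, at median depths of 7419 and 4448 UMIs. Dividing alveolar macrophages, with a UMI of Mki67 or Top2a (183 cells), had 316 CPM, and the 720 others 419 CPM. The leading groups of Il18 and Il1b differed, while interstitial macrophages came second for both genes.

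The ligand-binding chain Il18r1 was highest in NK cells at 748 CPM (688 to 811), followed by gamma-delta T cells at 404 CPM (377 to 433) and AT1 cells at 291 CPM (254 to 332). AT2 cells had 75.2 CPM and T cells 65.2 CPM, which did not differ beyond counting error. Neutrophils had 14.0 CPM, endothelium 13.4 CPM and the macrophage and monocyte groups 2.58 CPM or less, with 0 UMIs in inflammatory macrophages (under 1.47 CPM). The NK level was 1.85-fold that of gamma-delta T cells (1.66 to 2.06) and 11.5-fold that of T cells (9.74 to 13.5).

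NK cells led Il18r1 in each of the 4 runs that held enough of them, at 481 to 1050 CPM. Gamma-delta T cells ranged from 274 to 752 CPM over 5 runs. Their level was under that of NK cells in each of the 4 shared runs, with counting intervals that overlapped in run 4 (338 to 662 in NK cells, 180 to 398 in gamma-delta T cells) and in run 7 (882 to 1239 and 614 to 911). In endothelium 18 of the 19 UMIs were from run 6. In T cells the level was 41.1 CPM with a UMI of Cd8a or Cd8b1 and 86.0 CPM without.

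Il18rap, the accessory chain without which the receptor does not signal, was also highest in NK cells, at 393 CPM (350 to 440). Neutrophils were next with 169 CPM (150 to 190), ahead of gamma-delta T cells at 125 CPM (110 to 141) and T cells at 37.0 CPM. The other 7 groups had 9.41 CPM or less, with 0 UMIs in AT1 cells (under 3.95 CPM).

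By run, Il18rap was 104 to 565 CPM in NK cells, 155 to 306 CPM in neutrophils and 108 to 131 CPM in gamma-delta T cells. NK cells were highest in 3 of 4 runs, and in run 4, with 8 UMIs in 21 NK cells, gamma-delta T cells were above them (122 against 104 CPM). Neutrophils had 12.0 Il18rap UMIs per Il18r1 UMI (7.86 to 19.3), and 9.60 to 23.0 by run. Other myeloid groups also held more Il18rap than Il18r1 UMIs, from fewer counts. These were 156 against 47 in monocytes and 22 against 2 in interstitial macrophages. In alveolar macrophages they were 18 against 3 and in inflammatory macrophages 9 against 0. Markers of NK cells were almost missing from neutrophils: 5 of 6 (Klrb1c, Prf1, Klra8, Eomes and Klre1) were at 0 and the list summed to 1.22 CPM, against 5540 CPM in NK cells. In thinned neutrophils the share with an Il18rap UMI was 24.9%, against 1.01% of AT2 cells. Before thinning it was 42.9% against 2.75%, at median depths of 4677 and 4448 UMIs.

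AT1 cells showed the opposite pattern. They held 221 Il18r1 UMIs and 0 of Il18rap, which puts the ratio under 0.0168, while NK cells had 0.526 Il18rap UMIs per Il18r1 UMI (0.456 to 0.605), T cells 0.568 and gamma-delta T cells 0.308. AT2 cells had 0.0619 (0.0378 to 0.0962). The AT1 level of Il18r1 was 346 and 391 CPM in the 2 runs with enough cells, 3.87-fold that of AT2 cells over all cells (3.25 to 4.60) and 21.8-fold that of endothelium (13.6 to 36.9). After thinning 49.5% of AT1 cells (48 of 97) had an Il18r1 UMI against 2.27% of endothelial cells, and before thinning 67.6% against 3.41%, at median depths of 5748 and 2362 UMIs.

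Lymphocyte transcripts were present in those AT1 cells at levels far under those of the lymphoid groups. Of the NK markers 5 of 6 were at 0 and the list summed to 3.95 CPM. The gamma-delta T list summed to 22.4 CPM with Tcrg-C1 at 0, against 2437 CPM in gamma-delta T cells. The T list summed to 73.8 CPM with Cd8a, Cd8b1 and Trbc2 at 0, against 3478 CPM in T cells. That T list value was the highest outside the lymphoid groups, with 20.6 CPM in monocytes, 8.44 CPM in endothelium and 5.99 CPM in AT2 cells. For the gamma-delta T list, endothelium had 72.5 CPM, but 71.8 CPM of it was Sox13, which was highest in endothelium of all groups. Trdv4, Tcrg-C1 and Cd163l1 were at 0 in endothelium. The part of such transcripts in the AT1 level of Il18r1 was not tested. Il1rl1, the neighbour that ends 136 bases before Il18r1, had 1 UMI in AT1 cells.

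**Figure D3:**
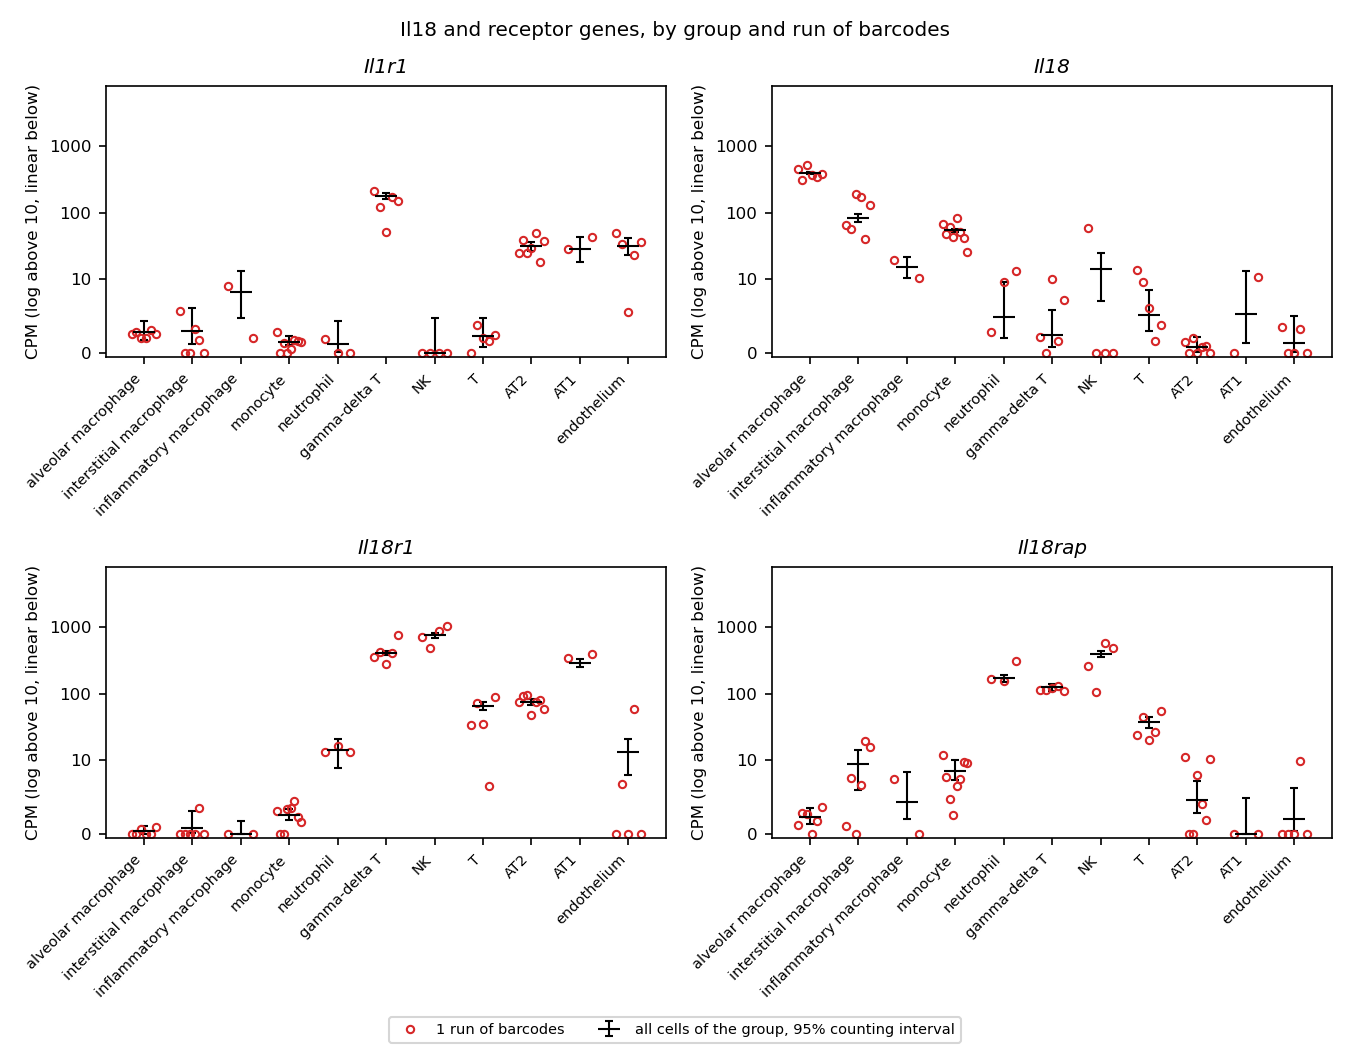
CPM of Il1r1, Il18, Il18r1 and Il18rap in each group, drawn as in the plot of the genes led by neutrophils (black, pooled value with 95% counting interval; red circles, runs of at least 20 cells). Il1r1 peaks in gamma-delta T cells, Il18 in alveolar macrophages and both interleukin 18 receptor chains in NK cells, and AT1 cells carry Il18r1 at 291 CPM with 0 UMIs of Il18rap.

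Nlrp3, the sensor that responds to ion efflux and other signs of cell damage, was a myeloid transcript throughout. It was 660 CPM in neutrophils (622 to 701), 224 CPM in inflammatory macrophages, 184 CPM in interstitial macrophages, 141 CPM in monocytes and 113 CPM in alveolar macrophages, and each of these neighbours differed beyond counting error. The other 6 groups were at 11.9 CPM or less. The neutrophil level was 2.95-fold the next (2.64 to 3.30) and 4.70-fold that of monocytes (4.37 to 5.04).

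Neutrophils led Nlrp3 in all 3 runs, at 654, 560 and 492 CPM, above the highest run of any other group (259 CPM). Interstitial macrophages at 141 to 241 CPM, monocytes at 84.7 to 214 CPM and alveolar macrophages at 75.4 to 162 CPM overlapped. In thinned neutrophils 53.8% of cells had a Nlrp3 UMI, against 0.245% of T cells, and before thinning 71.5% against 1.64%. With gates as written the ratio of the leading to the next group was just under the 2-fold threshold (2.00).

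Casp1, the protease that cuts both precursors, was spread over the macrophage and monocyte groups at low levels. Monocytes had 68.6 CPM (64.8 to 72.5), interstitial macrophages 56.0 CPM, inflammatory macrophages 51.4 CPM and alveolar macrophages 41.2 CPM. Among the 3 macrophage groups neighbours in this order did not differ beyond counting error. The intervals of interstitial (46.9 to 66.5) and alveolar macrophages (36.9 to 46.0), which are not neighbours, did not overlap. Neutrophils had 20.8 CPM (14.4 to 29.0), the other groups 8.96 CPM or less, and AT1 cells 0 UMIs (under 3.95 CPM).

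Monocytes were highest for Casp1 in 7 of the 8 runs, at 59.5 to 86.3 CPM, and exceeded interstitial macrophages by 1.22-fold (1.02 to 1.48). Their level was 3.30-fold that of neutrophils (2.35 to 4.79). The ratio to the sensor also set neutrophils apart: they had 0.0315 Casp1 UMIs per Nlrp3 UMI (0.0217 to 0.0442), against 0.230 to 0.488 in the 4 other myeloid groups. By run it was 0 to 0.0402 in neutrophils and 0.188 in the lowest run of those groups. The group with the highest Il1b and Nlrp3 thus had the lowest Casp1 level among the myeloid groups.

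**Figure D4:**
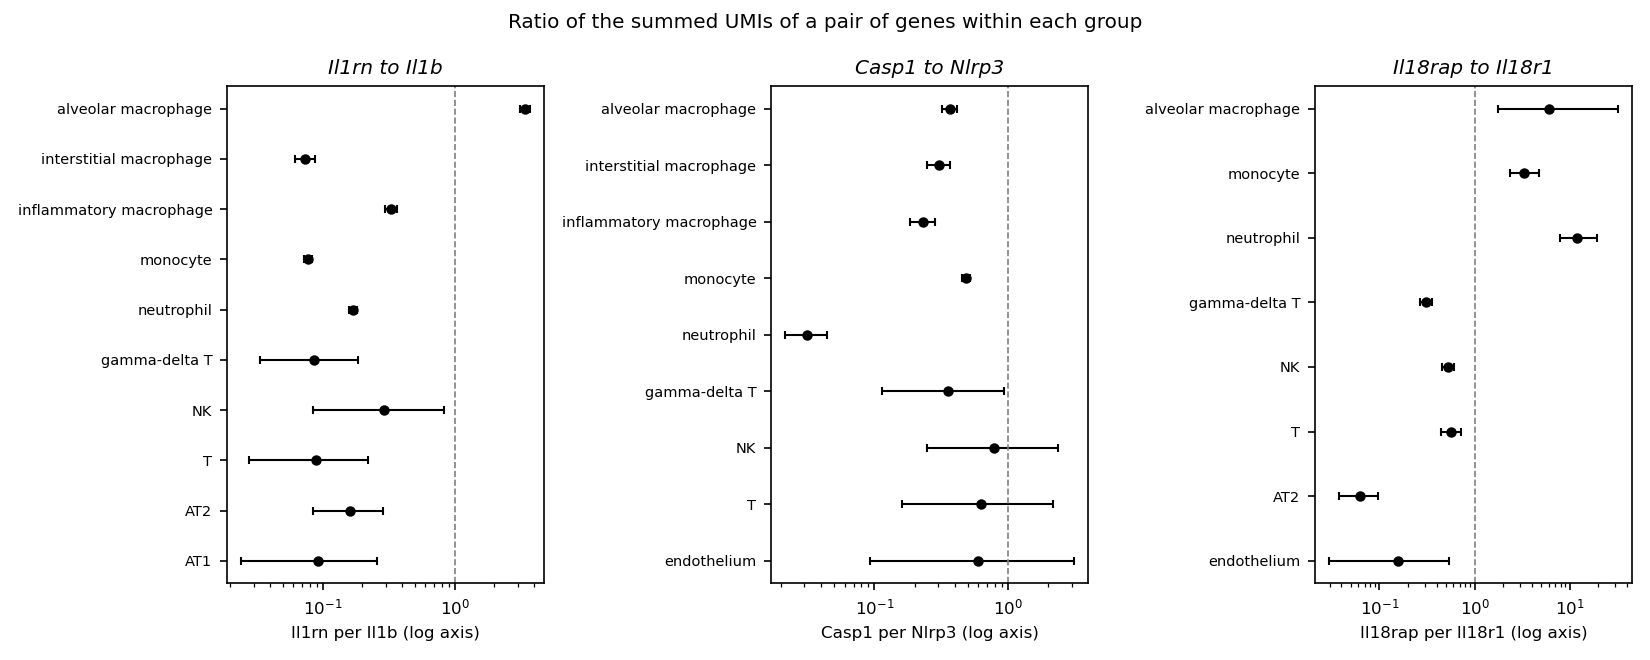
Ratio of the summed UMIs of Il1rn to Il1b, Casp1 to Nlrp3 and Il18rap to Il18r1 within each group on logarithmic axes, with exact 95% intervals for counting error, for groups with at least 3 UMIs of each gene. Alveolar macrophages alone lie right of the dashed line at 1 for Il1rn to Il1b (3.39), neutrophils lie lowest for Casp1 to Nlrp3 (0.0315), and neutrophils lie highest for Il18rap to Il18r1 (12.0).

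The members were partly found in the same neutrophils. In thinned cells, 52.8% of neutrophils with an Il1b UMI had one of Il1rn (46.4% to 59.1%), against 33.3% of those without (20.8% to 47.9%). For Nlrp3 the shares were 56.8% with Il1b (50.4% to 63.0%) and 39.2% without (25.8% to 53.9%). The intervals overlapped for both genes. For Il1a the shares were 20.4% and 1.96%. Il1r2 was found at similar shares in neutrophils with and without Il1b (61.2% and 56.9%). Il18rap ran the other way, at 23.2% with Il1b and 33.3% without, with overlapping intervals. Nlrp3 was found in 55.7% of neutrophils with Il1rn and 52.0% of those without. In gamma-delta T cells 62.5% of cells with an Il1r1 UMI had one of Il18r1, against 42.1% of those without, with intervals that met (49.5% to 74.3% and 34.4% to 50.0%).

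**Figure D5:**
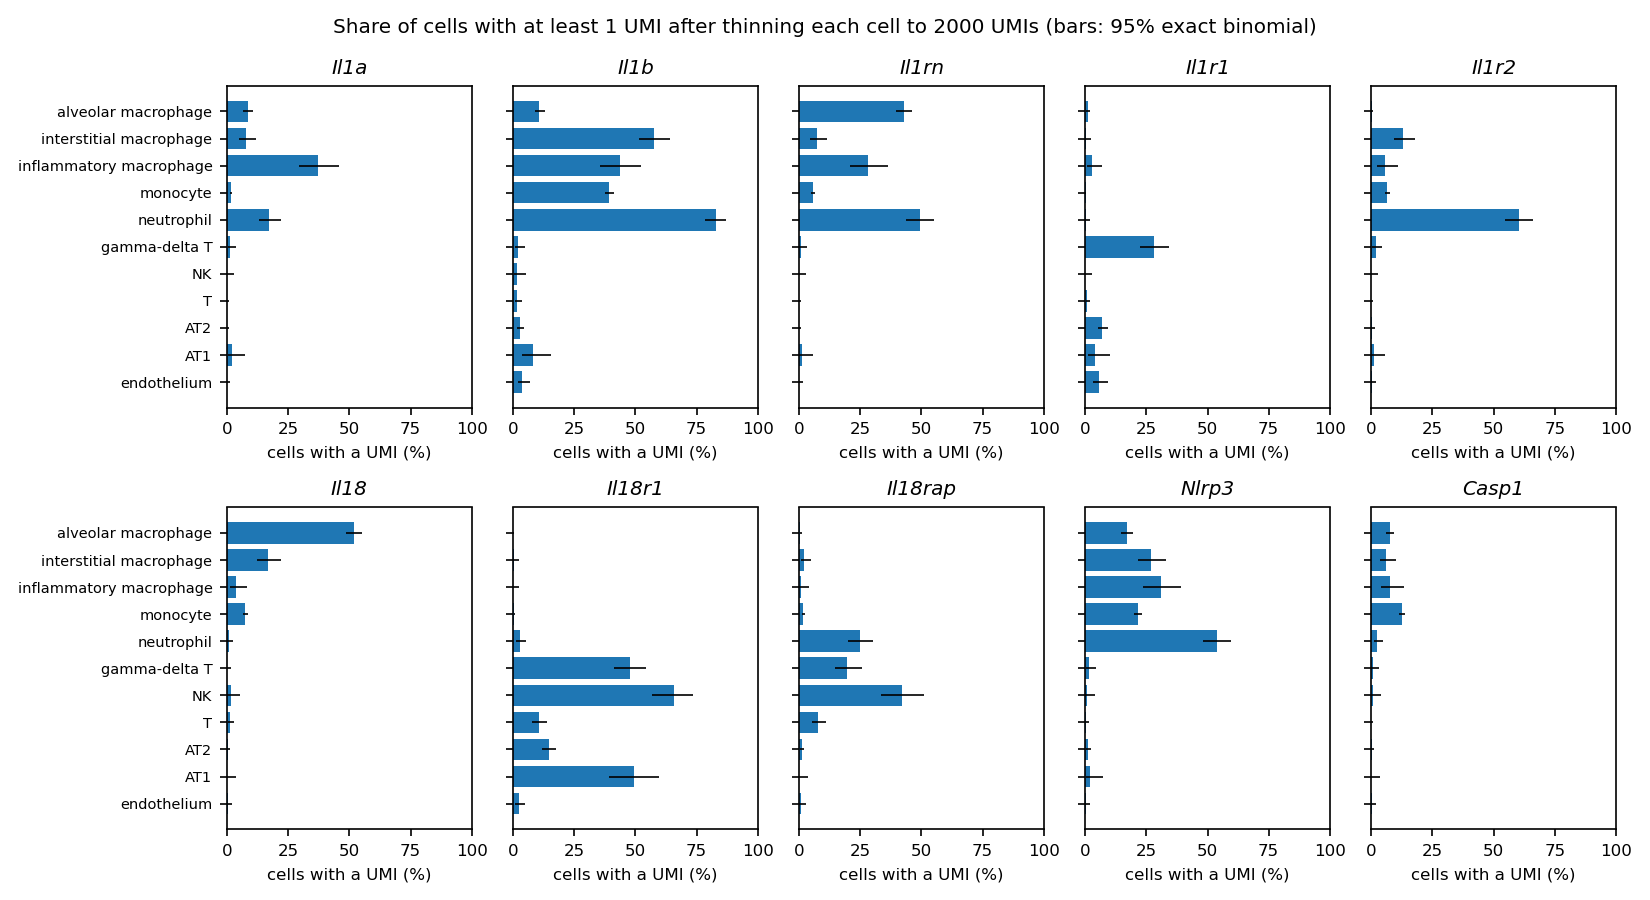
Share of cells with at least 1 UMI of each of the 10 genes in each group after each cell was thinned to 2000 UMIs, with exact 95% binomial intervals. Il1b reaches 83.1% of neutrophils, Il18 52.0% of alveolar macrophages and Il18r1 65.6% of NK cells, while Casp1 stays at 12.5% or less in every group.

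The other genes of the pathway were taken from a list of 61, of which 60 were in the table (Il36rn was not matched) and 45 reached 20 CPM in a group. Of the 45, 12 lay at least 2-fold above the next group, 12 were led by neutrophils and the median ratio was 1.35. These shares may be read against 21.3% and 8.92% of all ranked genes. For each role up to 4 of the genes with the highest levels are named, and Nlrp12, Gsdme, Gsdmd, Elane, Prtn3, Ctsg and Ifng were added after their values had been seen.

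Among the inflammasome sensors 7 of 11 were ranked and 1 had a 2-fold lead, Nlrp12 in neutrophils (65.4 CPM). The highest sensors were Naip2, a receptor for bacterial secretion proteins, at 213 CPM in inflammatory and 212 CPM in alveolar macrophages, the DNA sensor Aim2 at 114 CPM in monocytes, Nlrp1b at 90.7 CPM in interstitial macrophages and the flagellin receptor Naip5 at 75.4 CPM in alveolar macrophages. Reads of the near-identical Naip and Nlrp1 copies may have been split or lost, so their levels are uncertain. All 5 assembly genes were ranked and none had a 2-fold lead. Txnip reached 356 CPM in neutrophils, the adaptor Pycard, which joins sensor and caspase-1, 338 CPM in NK cells, the NLRP3 partner Nek7 142 CPM in both AT1 and NK cells, and the ATP-gated channel P2rx7 38.9 CPM in interstitial macrophages.

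Of the proteases and pore genes 6 of 9 were ranked. Casp8 was highest in alveolar macrophages (201 CPM), the membrane rupture gene Ninj1 in neutrophils (137 CPM) and Casp4, which senses LPS inside the cell, in inflammatory macrophages (107 CPM). Ninj1 and Gsdme, both led by neutrophils, were the 2 with a 2-fold lead (2.17 and 2.81). The neutrophil serine protease genes Elane, Prtn3 and Ctsg, whose products can also cut interleukin 1 beta, were not ranked. Gsdmd, the pore through which interleukin 1 beta leaves the cell, was 67.9 CPM in monocytes and 63.5 CPM in neutrophils.

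Of the other ligands 2 of 5 were ranked, and both had a wide lead. The alarmin Il33 was highest in AT2 cells (237 CPM, 10.9-fold the next group), and the interleukin 36 gamma gene, listed as Il1f9, was highest in neutrophils (175 CPM, 12.8-fold). Among receptors and decoys 3 of 5 were ranked. Il1rap, the accessory chain that the interleukin 1 and interleukin 33 receptors share, was highest in neutrophils at 249 CPM, 6.10-fold the next group, and was the only one of the 3 with a 2-fold lead. Il1rl2 reached 57.5 CPM in alveolar macrophages, the inhibitory receptor Sigirr 27.7 CPM in gamma-delta T cells, and Il18bp, the soluble inhibitor of interleukin 18, 7.34 CPM in inflammatory macrophages.

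All 11 signalling genes were ranked and none had a 2-fold lead. The kinase gene Irak2 was 298 CPM in inflammatory macrophages, Tab2 282 CPM in NK cells, the inhibitory Irak3 184 CPM in neutrophils and Map3k7 72.5 CPM in AT1 cells. Of the response genes, which interleukin 1 is known to raise in many cells, 11 of 14 were ranked, 6 had a 2-fold lead and 5 were led by neutrophils. The neutrophil attractant Cxcl2 was 4215 CPM in neutrophils, the NF-kB inhibitor Nfkbia 723 CPM and Nfkbiz 450 CPM there, and the adhesion gene Icam1 430 CPM in AT1 cells. Ifng, the classical product of interleukin 18 signalling, was 351 CPM in NK cells and 102 CPM in gamma-delta T cells, the same first and second groups as Il18r1.

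The genes most like each member over the 11 groups were found by the Pearson r of log2(CPM + 10), given as a description over 11 points that come from the same cells. For Il1b they were Ebi3 (0.97), Clec5a (0.97) and Ptafr (0.97), for Il1rn Egr2 (0.98), Cd300lf (0.97) and Hcar2 (0.97), and for Il1r2 Cass4 (0.96), Gm14455 (0.95) and Mmp8 (0.95). For Nlrp3 they were Cxcl2 (0.99), Osm (0.99) and Ccr1 (0.99), all highest in neutrophils. Il1a was most like Bst1, Usf2 and Adgb (0.96 each), Il18 most like Clec4b1, Sh2d1b1 and Lilra5 (0.96 each) and Casp1 most like Clec4a3 (0.97), Gusb (0.97) and Lair1 (0.96). The receptor genes of lymphoid groups had Trabd (0.88), Creld2 (0.87) and B4galnt4 (0.85) for Il1r1, Gm36975 (0.96), Nebl (0.95) and Eml4 (0.95) for Il18r1, and Zfp831 (0.96), Rfxap (0.95) and Gm36723 (0.94) for Il18rap. Il1r1 had the least close neighbours of the 10.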

How the data were processed

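RNA of single cells was captured with 10x Genomics Chromium 3' chemistry, per the labels' protocols. Per the submitters' processing notes the tool was Cell Ranger and the genome mm10. The treatment of strand and introns is not given in the sources used here. As counts, the authors deposited 1 table of raw UMI counts per gene and cell, with no normalization. Its lowest number of genes per cell was 800. The column names hold a barcode and a merge suffix that matched 0 of 8 libraries, so the planned count models between hyperoxia and air were not run.

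Counts were summed per gate and divided by the total of the group (CPM). Exact Poisson intervals were used for levels, exact Clopper-Pearson intervals for shares and exact conditional intervals for ratios, at 95% and for counting error only. Runs of barcodes with at least 20 cells of a group are given singly. Group means and SDs were not computed. For shares, cells were thinned to 2000 UMIs and shallower cells left out. Genes with at least 20 CPM in a group were ranked, and the ratio of the leading to the next group was compared with a threshold of 2-fold. The ranking was tested on simulated data. Doublets were kept in the main values, and an alternative removed the highest Scrublet scores, at 0.8% per 1000 cells of a run.

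All 10 members are named, with up to 4 genes of the highest level per pathway role and the 3 genes most alike by Pearson r of log2(CPM + 10). A pathway gene that this rule names and a split of gamma-delta T cells are not reported here. The members and lists were chosen with earlier results of these data known. Ratios between chosen groups, splits within groups, marker minimums for cells of no gate, motifs and printed promoters were chosen after levels had been seen and are descriptions. Positions are from GENCODE on GRCm38 and promoter windows from RefSeq. Alternatives changed the treatment of cells meeting several gates, the gate minimums, the weighting of cells, the depth, the total, doublets and the runs included. Python 3.11.15 was used with numpy 2.4.6, scipy 1.17.1, pandas 2.3.3, scanpy 1.11.5 and matplotlib 3.10.9.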

Additional observations from a re-analysis of the deposited data

Results flagged for a closer look

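The 4356 cells that met no gate were left out of the ranking of groups, and all 10 genes were found in them above the limit that a count of 0 allows. The ligand transcripts were present at 475 CPM (Il1b), 133 CPM (Il18) and 46.8 CPM (Il1a). The antagonist Il1rn was at 114 CPM and the decoy Il1r2 at 80.3 CPM. Among the signalling receptors, Il18r1 was at 29.9 CPM, Il18rap at 23.4 CPM and Il1r1 at 8.35 CPM. The inflammasome genes were at 119 CPM (Nlrp3) and 33.2 CPM (Casp1). These cells had a median of 3846 UMIs and are a mixture, so the values belong to no cell type.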

How the results depend on the processing

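All 10 members kept their leading group under the 15 alternatives run. Members with a 2-fold lead numbered 6 to 8 (main 8), pairs of member and group at 20 CPM or more 46 to 56 (main 49), and pathway genes with a 2-fold lead 10 to 14 (main 12). Leaving out 1 run of barcodes at a time gave 7 to 8, 46 to 52 and 11 to 14. Il1rn fell under the 2-fold threshold with gates as written (1.29), doubled gates (1.49), equal weight per cell (1.98), thinned cells (1.85), the total reduced by mitochondrial, ribosomal, haemoglobin and gate genes (1.97), and without run 1 (1.45) or run 5 (1.97). Il1a did so in thinned cells (1.65) and without run 6 (1.82), and Nlrp3 with gates as written (2.00 after rounding). Of the levels in leading groups, 2 moved by over 1.5 times, Il1b (2295 CPM) and Il1rn (372 CPM) in neutrophils with gates as written. The cause was not tested. No direction reversed. Removing 193 cells as likely doublets lost no 2-fold call.

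No paired analysis was possible because no column of the table was matched to a library. For the same reason the other planned fits of hyperoxia against air (a second method, no filter on low counts, leaving out libraries) were not run. Depth limited what zeros show: 0 UMIs allowed up to 3.95 CPM in AT1 cells and 3.84 CPM in NK cells. Intervals leave out differences between animals, and 1 run held 59.2% of the neutrophils.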

Other observations

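Some cells of no gate carried markers of other cell types, at minimums chosen after the levels had been seen. The 643 cells with at least 5 UMIs of Chil3 and Plet1, had 325 CPM of Il18, 193 CPM of Il1rn and 368 CPM of Il1b. Chil3 is on the lists of both alveolar macrophages and classical monocytes, and the type of these cells was not tested. For comparison, Il1b was 87.5 CPM in the gated alveolar macrophages and 323 CPM in monocytes of the Ly6c2 and F13a1 arm. The 131 cells with at least 2 UMIs of Flt3, Xcr1 and Cd209a, genes of dendritic cells, had 189 CPM of Il1b, 97.1 CPM of Il1r2 and 38.0 CPM of Il18. The 81 cells with at least 3 UMIs of Ccr7 and Ccl22, genes of migratory dendritic cells, had 216 CPM of Il1b and 24.9 CPM of Il1rn.

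The 59 cells with at least 3 UMIs of Il1rl1 and Gata3, genes of group 2 innate lymphoid cells, had 117 CPM of Il18r1 and 66.6 CPM of Il18rap, with 0 UMIs of Il1r1. The 151 cells with at least 2 UMIs of Cd79a and Ms4a1, genes of B cells, had 6.12 CPM of Il1b and 3.06 CPM of Il18r1. In interstitial macrophages, 20.6% of thinned cells with an Il1b UMI had one of Nlrp3 (14.2% to 28.2%), against 35.9% of those without (26.7% to 46.0%), the opposite order to that in inflammatory macrophages. The difference between the groups was not tested.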
